A study of Gelatoporia subvermispora and Trametes versicolor with 24 samples.

Results

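In the white-rot fungus Gelatoporia subvermispora, 122 of the 12313 genes listed were transcribed in agitated culture and lay well above that level in static culture, both with and without antioxidants. They are called static-boosted genes here. They were chosen by mean log2(CPM + 1), where CPM is a gene's count per 1000000 reads assigned to genes in the library, and 1 is added to every value. A gene was taken when its static mean exceeded its agitated mean by 2 or more on that scale, nominally 4-fold, in each antioxidant state, and when at least 1 of the 2 agitated means reached 1.2, which is 1.3 CPM. Height in static culture therefore chose the genes, and every static against agitated value is given as a description, without a test.

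White-rot fungi live on wood and decompose its lignin, a polymer of aromatic units, by means of secreted peroxidases and laccases. G. subvermispora is known as a selective lignin degrader, which removes lignin ahead of cellulose. Standing cultures of filamentous fungi usually form a mat at the surface, whereas shaken ones grow as dispersed pellets and are better supplied with oxygen, and many secretion and secondary metabolism genes are known to differ between these modes of growth. The deposited tables identify genes by running numbers only, so no function or sequence is given for any of them, and groups are described by level and response.

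The study sequenced RNA from 2 fungal species, and the 12 libraries of G. subvermispora strain FP-105752 are used here. The labels set static against agitated growth and antioxidants against none, 3 libraries in each of 4 groups. Every culture was grown at 28 °C in 25 mL of Czapek-Dox medium with 15 mM cellobiose, the disaccharide of cellulose, and was given 4-hydroxybenzoate, an aromatic acid related to lignin, at about 2 mM on day 10. The groups were static cultures with antioxidants, static cultures without, agitated cultures with antioxidants and agitated cultures without. Agitated flasks turned at 220 rpm. The antioxidants were ascorbic acid at 5 mM with α-tocopherol at 1 mM, given 30 min before the 4-hydroxybenzoate, and all mycelium was taken 24 h after it, on day 11. No group went without 4-hydroxybenzoate, and 1 strain stands for the species. Whether the replicates were separate flasks is not in the labels, so p-values measure the spread between these libraries, which may be technical.

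Reads assigned to genes numbered 17585100 to 26653884 in static cultures with antioxidants, 7875324 to 22838686 in static cultures without, 16696073 to 21773783 in agitated cultures with antioxidants and 20673893 to 25707667 in agitated cultures without. The shallowest library was static replicate 1 without antioxidants. Reads left out for low mapping quality made up 31.4 to 49.1% of a library, and values of genes with near-identical copies are therefore uncertain. Libraries that stood apart were agitated antioxidant replicate 3 and static replicate 1 without antioxidants. The agitated one correlated across genes at 0.972 to 0.976 with its group, against 0.995 between replicates 1 and 2. The static one correlated at 0.985 to 0.987 with its group and more highly, at 0.990, with static antioxidant replicate 2. All 122 static-boosted genes passed the filter on low counts that left 10529 genes for testing. The fewest reads of any of them in an agitated library were 9, none was at 0, and 2 had under 10 reads in an agitated library.

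The static-boosted genes lay in the upper part of the transcriptome in static culture and in its lower part in agitated culture. Given as CPM scaled between libraries by TMM, which corrects for differences in composition, their median level was 73.9 CPM in static cultures with antioxidants (quartiles 37.6 and 275) and 109 CPM in static cultures without (43.3 and 312). In agitated cultures the median was 7.43 CPM with antioxidants (4.25 and 17.2) and 8.45 CPM without (3.31 and 18.7). Over all genes tested the median was between 27.4 and 27.9 CPM in each of the 4 groups. The typical static-boosted gene thus ranked at percentile 73.8 of all genes tested in static cultures with antioxidants and 81.6 without, against 26.6 in agitated cultures with antioxidants and 28.1 without. In RNA from whole mycelium, fewer cells of a type and less RNA per cell cannot be told apart.

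Levels above 100 CPM were reached by 53 static-boosted genes in static cultures with antioxidants and by 64 in static cultures without, against 6 in agitated cultures with antioxidants and 10 without. Among the 200 most abundant transcripts of a group there were 19 and 22 of them in static cultures with and without antioxidants, against 1 in each agitated group. Replicates were spread more widely than those of the typical gene. The median coefficient of variation was 19.6% and 30.7% in static cultures with and without antioxidants, against 8.71% and 10.4% over all genes tested. The corresponding median was 22.2% with and 13.8% without antioxidants in agitated cultures, against 13.6% and 6.86% over all genes tested. A wide spread was not particular to the static-boosted genes. In 23 genes past the same limits on the difference, but with both agitated means under 1.2, the medians were higher in every group. They were 27.7% and 34.8% in static cultures with and without antioxidants, and 27.7% and 31.4% in agitated ones.

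**Figure D1:**
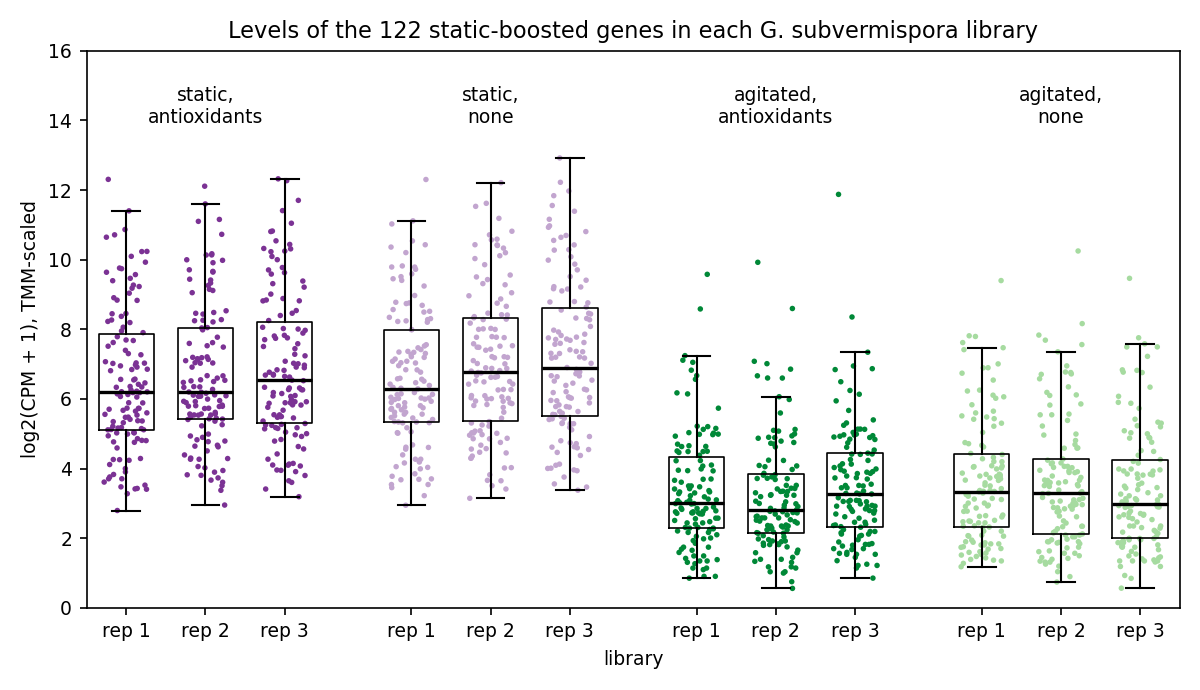
Levels of the 122 static-boosted genes in each of the 12 libraries, as TMM-scaled log2(CPM + 1), with 1 point per gene; boxes show the quartiles and the median, and whiskers reach the last point within 1.5 times the box. Medians lie between 72.1 and 116 CPM in the 6 static libraries and between 5.96 and 9.10 CPM in the 6 agitated ones.

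Together the 122 genes took up a share of gene reads that was many times larger in static culture. In static cultures with antioxidants they held 3.71, 4.01 and 4.90% of the reads in replicates 1 to 3, and in static cultures without them 3.67, 4.93 and 6.43%. In agitated cultures with antioxidants they held 0.271, 0.277 and 0.645%, and in agitated cultures without them 0.372, 0.414 and 0.308%. The group means were 4.21 ± 0.619% and 5.01 ± 1.38% in static cultures with and without antioxidants, against 0.398 ± 0.214% and 0.365 ± 0.0532% in agitated cultures with and without (SD, n = 3 each). The 95% Wilson interval of a library's share was at most 0.0263 percentage points wide, and such intervals cover counting error only. All static libraries lay above all agitated ones, and antioxidant and control libraries overlapped in both modes of growth.

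One gene sets the agitated antioxidant mean apart. Without gene10180 the shares in that group were 0.206, 0.192 and 0.255%, so the high value of replicate 3 came mostly from this transcript. The corresponding shares without gene10180 in agitated cultures without antioxidants were 0.306, 0.299 and 0.244%. In static culture the reads were spread over more genes: 9 static-boosted genes made up 50% of the summed level with antioxidants and 10 without, against 2 in agitated cultures with antioxidants and 7 without.

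**Figure D2:**
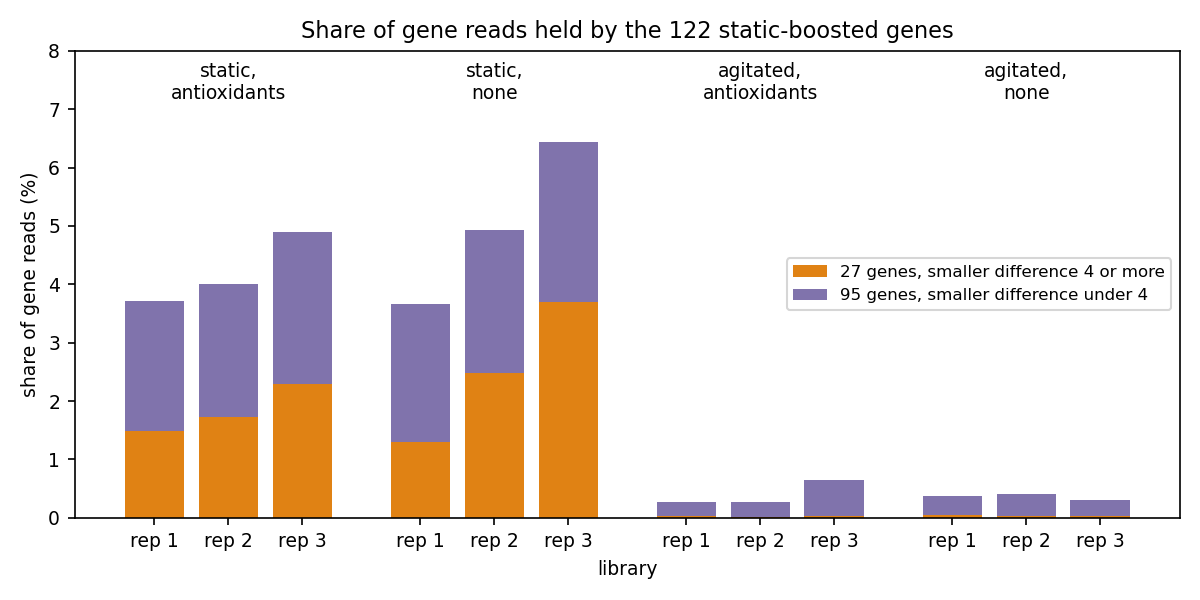
Share of gene reads held by the static-boosted genes in each library (%), split into 27 genes whose smaller static minus agitated difference was 4 or more and the other 95. The static bars reach 3.67 to 6.43% and the agitated bars 0.271 to 0.645%, and the 27 genes account for most of the spread between the static libraries without antioxidants.

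The differences that chose the genes had similar medians in both antioxidant states. The same limit was set on both, so this likeness is partly fixed by the choice and is a description. With antioxidants the median static minus agitated difference was 3.11 on the log2(CPM + 1) scale (quartiles 2.47 and 4.25, highest 7.69), and without antioxidants it was 3.14 (2.58 and 4.18, highest 7.33). In 66 genes the 2 differences lay within 0.5 of each other, and in 94 within 1. The difference was at least 1 larger with antioxidants in 11 genes and at least 1 larger without them in 17. At the limit on the difference, the last gene inside had a smaller difference of 2.001 and the first outside had 1.995. Close to that limit were 20 static-boosted genes under 2.2, and another 29 genes transcribed in agitated culture lay between 1.8 and 2. At the limit on agitated level, the last gene inside had 1.283 and the first outside 1.145, with 4 static-boosted genes under 1.4. The limits apply to CPM by library totals, and with the TMM-scaled CPM given for the levels here 103 of the 122 genes meet them.

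In 120 of the 122 genes all 6 static libraries lay above all 6 agitated ones, against 15.6% of all genes tested. The choice of genes largely fixed this count, and nothing is read from it. The test across all genes was the quasi-likelihood test of edgeR, adjusted by Benjamini-Hochberg. It called 23.5% of all genes tested higher in static culture with antioxidants and 23.7% without. Its calls on the 122 genes follow from their choice and are not given. The first of the 2 overlapping genes was gene10180, described next. The other had 66.2, 67.1 and 71.6 CPM in static cultures with antioxidants and 20.01, 42.6 and 35.3 CPM in static cultures without. It had 17.7, 16.02 and 20.7 CPM in agitated cultures with antioxidants, and 4.63, 10.6 and 3.89 CPM in agitated cultures without. Its overlap was between agitated antioxidant replicate 3 and static replicate 1 without antioxidants, which are the libraries that stood apart from their groups.

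**Figure D3:**
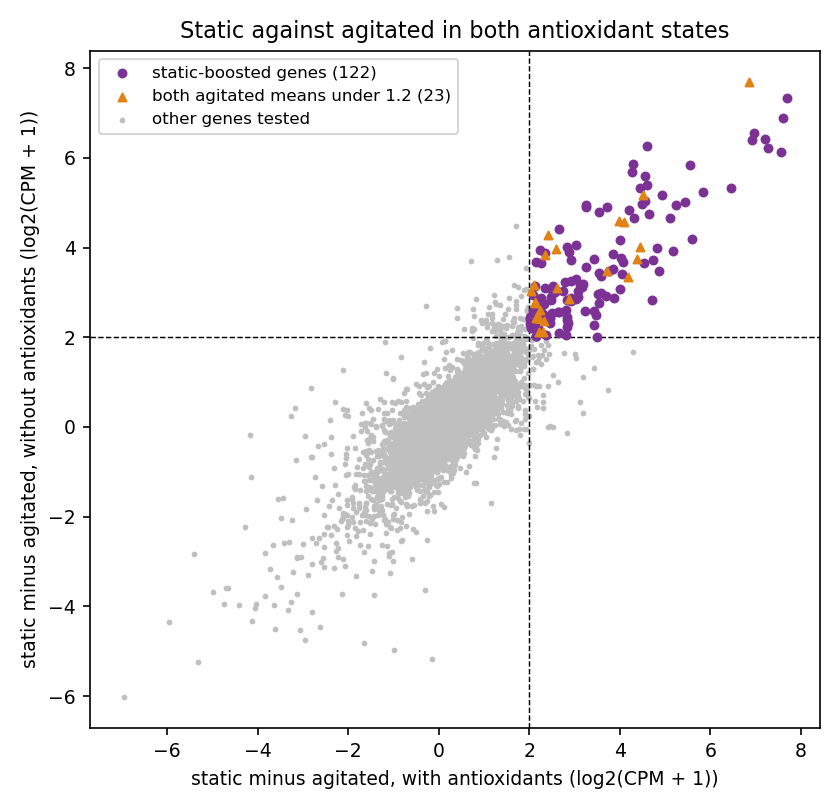
Static minus agitated difference in mean log2(CPM + 1), with antioxidants on the horizontal axis and without on the vertical axis, for all genes tested; dashed lines mark the limit of 2. The 122 static-boosted genes fill the upper right corner, 7 of them apart from the other static-boosted genes at the top. Triangles mark 23 genes past both limits whose agitated means were both under 1.2. A triangle lies near the 7, at 6.86 with antioxidants and 7.7 without.

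The most abundant static-boosted gene over both static groups, gene10180, had 5063, 4419.6 and 5116 CPM in static cultures with antioxidants and 5049, 2958 and 4015 CPM in static cultures without. In agitated cultures with antioxidants it had 764, 970.4 and 3755 CPM, and in agitated cultures without 674, 1216 and 705 CPM. It was thus an abundant transcript in every library, ranking 6 and 9 of all genes tested in static cultures with and without antioxidants, and 53 and 143 in agitated ones. Agitated antioxidant replicate 3 was far above its group's other libraries and reached into the static range. Its static minus agitated difference was 2.01 with antioxidants and 2.41 without, close to the limit. The second most abundant, gene5057, had 2704, 3104 and 4934 CPM in static cultures with antioxidants and 2083, 4740.0 and 7749.8 CPM without. It had 33.9, 14.7 and 30.3 CPM in agitated cultures with antioxidants and 73.9, 67.5 and 52.0 CPM in agitated cultures without. In contrast to gene10180, this transcript was at a moderate level in all agitated libraries and stood among the most abundant in the static ones, at rank 16 with antioxidants and rank 5 without. Its differences were 7.28 with antioxidants and 6.22 without.

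The genes whose smaller difference was largest were gene7069 and gene11534. In static cultures with antioxidants gene7069 had 759.6, 1020.5 and 1809 CPM, and without antioxidants 699, 1677 and 3009 CPM. In agitated cultures with antioxidants it had 15.8, 3.99 and 1.96 CPM, and without antioxidants 15.8, 10.3 and 5.43 CPM. Static replicate 3 was the highest static library and agitated replicate 1 the highest agitated library in both antioxidant states. The differences of gene7069 were 7.69 with antioxidants and 7.33 without, and those of gene11534 were 7.6 and 6.9. Levels of gene11534 were 457, 553 and 768 CPM in static cultures with antioxidants and 298, 634 and 1013 CPM without, against 3.82, 1.26 and 2.54 CPM in agitated cultures with antioxidants and 7.04, 4.02 and 2.98 CPM without. The order of the replicates was again lowest in static replicate 1 and highest in static replicate 3.

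These transcripts belong to 7 that stand apart at the top, with a smaller difference of 6.13 to 7.33, against 5.56 for the next gene below. Their group means ran from 593 to 3581 CPM in static cultures with antioxidants and from 649 to 4858 CPM without, against 2.54 to 26.3 CPM in agitated cultures with antioxidants and 4.68 to 64.5 CPM without. All 7 were highest in replicate 3 of both static groups and in replicate 1 of both agitated groups. Of all genes tested, 42.0% and 30.6% were highest in replicate 3 of the static groups with and without antioxidants, and 23.4% and 31.8% in replicate 1 of the agitated groups. Summed, the 7 held 0.946 to 1.596% of gene reads in static cultures with antioxidants and 0.764 to 2.54% without, against 0.00450 to 0.00997% in agitated cultures with antioxidants and 0.0118 to 0.0232% without. This set of 7 was picked out after its values were seen, and it gets no test.

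The wider set of 27 genes with a smaller difference of 4 or more was also uneven between static libraries. It held 1.48, 1.73 and 2.28% of gene reads in static cultures with antioxidants and 1.30, 2.49 and 3.70% without. In agitated cultures it held 0.0247, 0.0170 and 0.0293% with antioxidants and 0.0485, 0.0396 and 0.0283% without. In static cultures without antioxidants, 19 of these 27 genes differed more than 2-fold between the highest and the lowest library, and 22 were highest in replicate 3. The other 95 genes were steadier, with 2.23, 2.28 and 2.62% in static cultures with antioxidants and 2.37, 2.44 and 2.73% without, and 34 of them differed more than 2-fold in static cultures without antioxidants. Replicate 1 held the lowest share of the 27 genes in both static groups, where it was the deepest library with antioxidants, at 26653884 reads, and the shallowest without, at 7875324 reads.

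With antioxidants in agitated culture 29 static-boosted genes changed, or 23.8%, which is near the 22.3% of all genes tested that did. The rule set no limit on this difference, although the same libraries entered it. Of the 122 genes, edgeR's quasi-likelihood test at an adjusted p under 0.05 called 9 higher with antioxidants, which is 7.38%, against 11.6% of all genes tested. It called 20 lower, which is 16.4%, against 10.6% of all genes tested. Of these, 1 of the 9 reached the agitated floor of the rule only with antioxidants, and 3 of the 20 only without, so the choice of genes bears on their direction. The median log2 fold change of the 122 was -0.26 (quartiles -0.68 and 0.18), against 0.00 over all genes tested (-0.25 and 0.23). Below 0 lay 77 of the 122, or 63.1%, against 49.4% of all genes. With 1 library left out at a time, the number higher ran from 5, without agitated replicate 3 of the cultures lacking antioxidants, to 13, without agitated antioxidant replicate 2. The number lower ran from 10, without agitated replicate 1 or 2 of the cultures lacking antioxidants, to 29. Without agitated antioxidant replicate 2 the balance of calls turned, with 13 higher and 11 lower.

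The 20 genes that fell and the 9 that rose had different median levels. Those that fell had medians of 246 CPM in static cultures with antioxidants, 261 CPM in static cultures without, 15.8 CPM in agitated cultures with antioxidants and 39.4 CPM in agitated cultures without. Their log2 fold changes in agitated culture ran from -1.77 to -0.35, with a median of -1.06. Those that rose had medians of 48.5 and 50.7 CPM in static cultures with and without antioxidants, and 7.66 and 3.07 CPM in agitated cultures with and without. Their log2 fold changes ran from 0.60 to 2.17, with a median of 1.51, and 7 of the 9 were highest in agitated antioxidant replicate 3.

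Among the genes that rose and had a mean log2 CPM of at least 3 over all 12 libraries, the largest rises were those of gene5479 and gene10558. In agitated culture gene5479 had 6.10, 4.10 and 12.8 CPM with antioxidants and 2.02, 1.48 and 1.54 CPM without. Every antioxidant library lay above every control library, and such a lack of overlap was a condition for naming genes in the antioxidant comparisons. The log2 fold change of gene5479 was 2.17 (SE 0.37, edgeR adjusted p = 0.0021). In static culture gene5479 was nearly level, at 43.1 ± 2.94 CPM with antioxidants and 50.7 ± 6.62 CPM without (SD, n = 3 each), a log2 fold change of -0.24 (SE 0.28, edgeR adjusted p = 0.81). For gene10558 the agitated values were 2.95, 2.52 and 7.32 CPM with antioxidants and 1.62, 0.671 and 0.479 CPM without. Replicate 3 was the highest antioxidant library in both genes. The log2 fold change of gene10558 was 2.14 (SE 0.53), from as few as 9 reads in an agitated library. This gene reached the agitated floor of 1.2 only with antioxidants, at a mean of 2.2 against 0.87 without, so its rise is a description. It was 1.48 without agitated antioxidant replicate 3, 1.94 without agitated replicate 2 lacking antioxidants and 1.86 without agitated replicate 3 lacking them, and in each case the call was lost. Its static levels were 18.4 ± 4.91 CPM with antioxidants and 21.4 ± 5.69 CPM without (SD, n = 3 each).

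The largest falls were those of gene6680 and gene196. Agitated cultures with antioxidants had 52.2, 47.4 and 60.6 CPM of gene6680, against 169.7, 227 and 148 CPM in agitated cultures without. The groups were far apart relative to their spread, with a log2 fold change of -1.77 (SE 0.15, edgeR adjusted p = 2.9e-05). In static culture the same transcript was at 1212 ± 64.4 CPM with antioxidants and 1122 ± 48.8 CPM without (SD, n = 3 each), and its log2 fold change there was 0.11 (SE 0.15, edgeR adjusted p = 0.84). For gene196, one of the 7 genes at the top, agitated levels were 23.8, 12.1 and 8.82 CPM with antioxidants and 68.0, 45.7 and 28.4 CPM without. Here the highest antioxidant library came near the lowest control library, and the log2 fold change was -1.68 (SE 0.49, edgeR adjusted p = 0.032). The call on gene196 was lost without agitated antioxidant replicate 2 (edgeR adjusted p = 0.0925) or 3 (0.132) and without agitated replicate 1 (0.11) or 2 (0.0663) lacking antioxidants. All 7 top genes had a log2 fold change below 0 in agitated culture, from -1.68 to -0.57, and gene196 was the 1 that passed the test. In static culture all 7 also lay below 0, from -0.62 to -0.13, and none passed. Of all genes tested, 49.4% lay below 0 in agitated and 51.1% in static culture. The 7 were picked after values were seen and were highest in the same replicates, so their shared sign is a description.

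Agitated antioxidant replicate 3 also stood apart in the static-boosted genes. It exceeded the mean of replicates 1 and 2 by more than 2-fold in 14 of the 122 genes, or 11.5%, against 2.93% of all genes tested, and lay under 0.5 times their mean in 4, or 3.28%, against 6.00%. The part of this library in the antioxidant values was measured by leaving it out. Without it, 6 static-boosted genes were called higher, all 6 among the 9, and 20 were called lower, 15 of them among the 20.

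**Figure D4:**
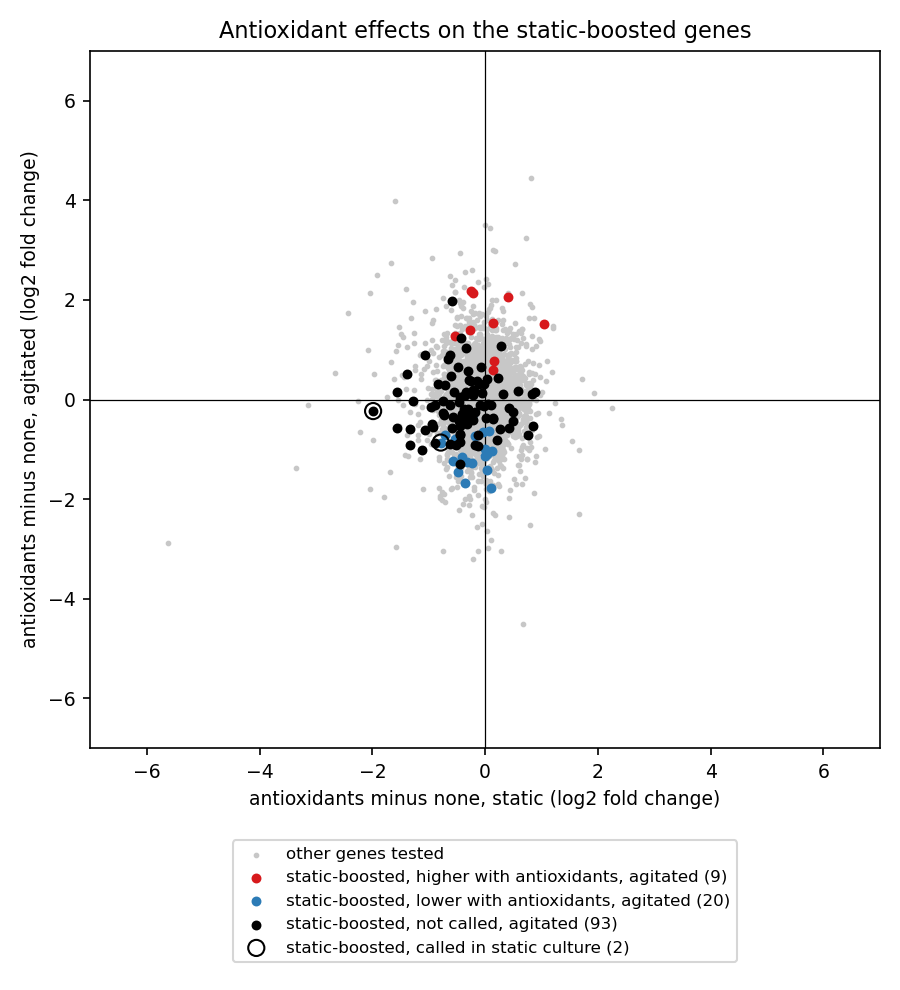
Log2 fold change with antioxidants in static culture (horizontal) and in agitated culture (vertical), for the static-boosted genes over all other genes tested in grey. Red and blue points are the 9 and 20 genes that passed the test in agitated culture, and rings mark the 2 that passed it in static culture; most black and blue points lie left of 0.

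In static culture antioxidants changed few static-boosted genes beyond the spread between replicates. None was called higher by edgeR's quasi-likelihood test, against 0.095% of all genes tested, and 2 were called lower, which is 1.64%, against 0.361% of all genes tested. At an unadjusted p under 0.05 the test found 7 higher and 29 lower, where 5.14% and 6.42% of all genes tested were. DESeq2 with its own adjustment called 3 higher and 13 lower. Over all genes it called 252 in either direction, against 48 in the main fit. The median log2 fold change was -0.31 (quartiles -0.56 and 0.00), against -0.01 over all genes tested (-0.13 and 0.12), and 91 of the 122 genes, or 74.6%, lay below 0, against 51.1%. The static replicate numbers met the criterion for pairing given with the processing, but the main fit, with 0 higher and 2 lower, was unpaired. With the number as a block over all 12 libraries 2 genes were called lower, where 28 of all genes were called in either direction. With the block kept to the static libraries, in a fit of all 12, 8 were called lower, where 90 of all genes were called. The count lower was 12 without static replicate 1 lacking antioxidants, where 175 of all genes were called in either direction. It was 0 without static antioxidant replicate 1 or 2, and 1 without static antioxidant replicate 3, static replicate 2 or 3 lacking antioxidants, or agitated replicate 1 or 3 lacking antioxidants.

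The 2 genes that fell were gene4544 and gene2546. In static culture gene4544 had 23.1, 27.4 and 35.1 CPM with antioxidants and 157, 63.4 and 119 CPM without, with a wide spread among the controls. There was no overlap, which was a condition for naming. The log2 fold change was -1.99 (SE 0.28, edgeR adjusted p = 0.013). In agitated culture it was low in both groups, at 2.51 ± 0.599 CPM with antioxidants and 2.97 ± 0.238 CPM without (SD, n = 3 each), a log2 fold change of -0.23 (SE 0.38, edgeR adjusted p = 0.70). The static call on gene4544 was lost without static antioxidant replicate 1 (edgeR adjusted p = 0.0959) or 2 (0.0662), without static replicate 3 lacking antioxidants (0.0583), and in a fit of the static groups alone (0.0939). For gene2546 static levels were 130.1, 136 and 113 CPM with antioxidants and 187, 216 and 251 CPM without, a log2 fold change of -0.79 (SE 0.13, edgeR adjusted p = 0.023). This gene also fell in agitated culture, where it had 30.4, 28.8 and 38.7 CPM with antioxidants and 63.9, 55.6 and 58.8 CPM without, a log2 fold change of -0.86 (SE 0.13, edgeR adjusted p = 0.00098). The static call on gene2546 was lost under 9 of 23 alternatives, with edgeR adjusted p of up to 0.114 when static antioxidant replicate 1 was left out, and 0.0529 with the replicate block.

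**Figure D5:**
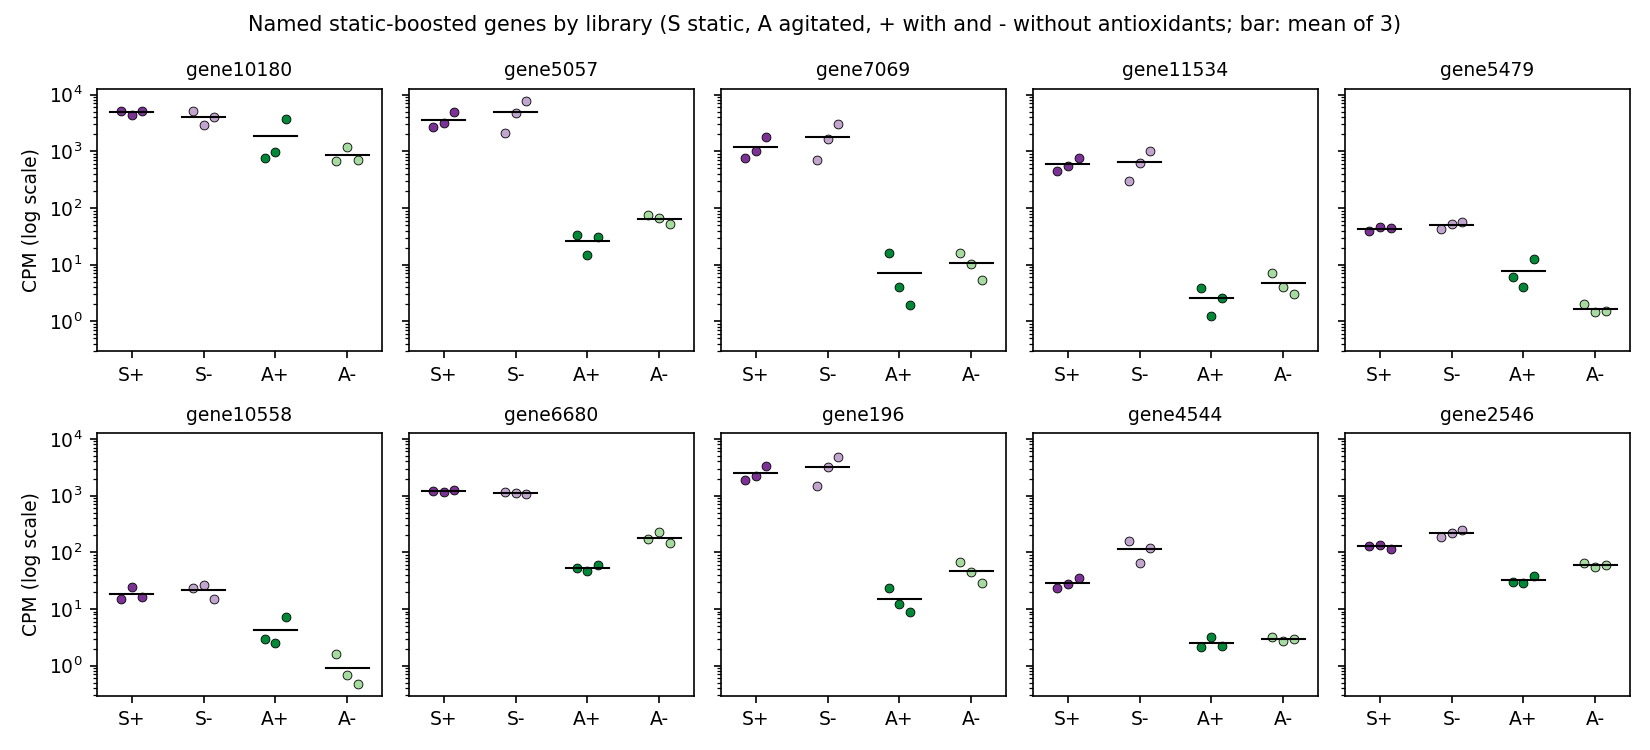
Levels of the 10 named static-boosted genes in each library, in TMM-scaled CPM on a log axis, for static (S) and agitated (A) cultures with (+) and without (-) antioxidants; bars are means of 3. The static minus agitated step is present in every panel. The antioxidant step in agitated culture is visible for gene5479, gene10558, gene6680, gene196 and gene2546, and that in static culture for gene4544 and gene2546. The agitated libraries of gene5057 also separate by antioxidants, without passing the test (edgeR adjusted p = 0.06).

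The interaction term of the same fit, which compares the effect of antioxidants between static and agitated culture, was called in 14 static-boosted genes. The static minus agitated effect was positive in 5, which is 4.10%, against 4.28% of all genes tested, and negative in 9, or 7.38%, against 4.77%. This term is also the difference between the 2 static against agitated differences that chose the genes, so its counts are a description. The majority turned to positive without agitated replicate 3 lacking antioxidants (6 of 8 calls) and without agitated antioxidant replicate 3 (6 of 10), and the count was 6 without agitated replicate 2 lacking antioxidants or static antioxidant replicate 1. Of the 9 genes that rose with antioxidants in agitated culture, 5 were among the 14, and of the 20 that fell, 3 were. The 9 that rose had a median static minus agitated difference of 2.67 with antioxidants and 3.87 without, and the 20 that fell had 3.87 with and 3.06 without. The agitated means that formed these groups are subtracted in both differences, so this contrast largely follows from the grouping. In the 9, static log2 fold changes lay on both sides of 0, 4 below and 5 above, and in the 20, 14 lay below and 6 above.

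Some static-boosted genes bore neighbouring numbers, although whether the numbers follow the order of genes on the chromosomes is not given in the sources used here. Of the 122, 15 (12.3%) bore the number next to another static-boosted gene, as did 1.86% of the other genes listed. They formed 6 pairs and 1 run of 3. Of 211 other tested genes numbered next to one of them, 50 (23.7%) were higher in static culture in both antioxidant states by edgeR, against 15.3% of all genes tested. One pair holds gene6680 and the gene numbered directly below it, which had 1237 ± 134 CPM in static cultures with antioxidants and 1246 ± 69.8 CPM in static cultures without. In agitated cultures this neighbour had 96.8 ± 6.67 CPM with antioxidants and 193 ± 13.1 CPM without (SD, n = 3 each), a log2 fold change of -1.0 (SE 0.11, edgeR adjusted p = 1e-04). Another static-boosted gene numbered 3 below gene6680 had 332 ± 20.5 and 304 ± 34.6 CPM in static cultures with and without antioxidants, and 34.7 ± 1.28 and 70.9 ± 8.26 CPM in agitated cultures with and without. All 3 fell with antioxidants in agitated culture, and none passed the test in static culture, where their log2 fold changes were 0.11, -0.01 and 0.13. By contrast, the static-boosted gene numbered directly below gene5479 had 15.2 ± 2.26 CPM in agitated cultures with antioxidants and 17.6 ± 0.777 CPM without (SD, n = 3 each), and did not share the rise of gene5479. These neighbours were picked by their numbers after values were seen. Over the 8 adjacent pairs of static-boosted genes, the agitated antioxidant effects had the same sign in 4 and the static ones in 5.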

How the data were processed

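Each library has 1 deposited table of raw read counts by gene number, not normalised by the authors. Per the submitters' processing notes, HTSeq, Bowtie, Bowtie2 and FastQC were used, in roles not given. Neither genome build nor annotation nor strand setting is given in the sources used here, so overlapping and antisense genes are uncertain. HTSeq's summary lines for uncounted reads entered no library size and no test. They held 31.4 to 49.1% of reads for low mapping quality, 4.61 to 5.32% outside genes, 0.551 to 1.39% not aligned and 0.213 to 0.271% ambiguous. Groups and replicate numbers were taken from the library titles.

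The static-boosted genes were chosen on CPM per library total. Tests used edgeR 4.0.16 in R 4.3.3 with filterByExpr, TMM scaling, a robust quasi-likelihood fit of 4 group means over the 12 libraries (8 residual degrees of freedom) and Benjamini-Hochberg adjustment over 10529 genes, with calls at an adjusted p under 0.05. SEs were derived from the fold change and the F statistic. CPM levels are TMM-scaled, and shares use library totals. DESeq2 1.42.0 and limma 3.58.1 gave alternatives. The procedure was tested on simulated data with antioxidant changes in a single mode of growth at a time and no static effect. Such data do not cover the static against agitated differences of these libraries. Replicates differed by more than sampling noise in all pairs, with chi-square per degree of freedom from 18.03 to 145.55.

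The genes and comparison sets were chosen with earlier results of these data known. Genes were named by a rule: the 2 most abundant in static culture, the 2 with the largest smaller difference, and in each antioxidant comparison up to 2 rises and 2 falls at an adjusted p under 0.05, with log2 CPM averaging 3 or more and no overlapping libraries. Lists by product could not be filled without gene names. The criterion for pairing of replicate numbers was that all same-number libraries' deviations from their group means correlated above 0.1. They did in static cultures with against without antioxidants (0.251, 0.137 and 0.319), a hint from the counts only, as the meaning of the numbers is not in the labels. In agitated cultures the values were -0.05, 0.09 and -0.018. The main fit was unpaired throughout, and blocks by replicate number were run as alternatives only.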

Additional observations from a re-analysis of the deposited data

Results flagged for a closer look

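Of the named static-boosted genes, 4 were flagged for the interaction term of the edgeR fit over all genes, which sets antioxidant effects in static culture against those in agitated culture. This term is the difference between the 2 static against agitated differences that chose the genes, so its values are a description and carry no p here. Values are the log2 fold change with antioxidants in static culture minus that in agitated culture. It was -2.41 for gene5479 (SE 0.46), which rose in agitated culture and was nearly level in static culture. It was -2.35 for gene10558 (SE 0.65), with the same pattern at lower counts. For gene6680 it was 1.88 (SE 0.21), since the transcript fell with antioxidants in agitated culture and was at 1212 and 1122 CPM in static cultures with and without them. For gene4544 it was -1.75 (SE 0.47), from a fall in static culture and low levels in both agitated groups. Over 21 alternatives all values kept their sign, from -2.72 to -1.81 for gene5479, 1.68 to 2.0 for gene6680, -2.04 to -1.45 for gene4544 and -3.07 to -1.69 for gene10558. Calls by this term bear no weight here, and those on gene4544 and gene10558 were missing in 12 and 16 of the 21. The groups of 3 libraries are too small for a test of single outlying libraries.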

How the results depend on the processing

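Single genes' fold changes and the medians kept their direction under the alternatives run, but the balance of calls did not in every one. Median log2 fold changes with antioxidants over the 122 genes ran from -0.30 to -0.18 in agitated culture and from -0.46 to -0.17 in static culture. Genes higher with antioxidants in agitated culture numbered 14 with DESeq2, 6 with limma-voom and quality weights, and 5 to 13 with 1 library left out. Genes lower numbered 27 with DESeq2, 30 with limma-voom and quality weights, and 10 to 29 with 1 left out. Without agitated antioxidant replicate 2, 54.2% of these calls were higher, against 31.0% in the main fit and 34.1% with DESeq2. The next highest share was 44.4%, without agitated replicate 1 lacking antioxidants. In static culture, 3 were higher with DESeq2, 4 with limma-voom and quality weights, and 0 to 1 with 1 library left out. Genes lower in static culture numbered 1 with library totals alone, 8 with the replicate block in static libraries only, 13 with DESeq2, 19 with limma-voom and quality weights, and 0 to 12 with 1 library left out. Genes whose antioxidant effects differed numbered 8 with the replicate block, 22 with limma-voom and quality weights, 25 with DESeq2, and 6 to 21 with 1 library left out; 35.7% of these calls were positive, against 46.2% with upper-quartile scaling, 50.0% with library totals alone or the replicate block, 52.0% with DESeq2, 59.1% with limma-voom and quality weights, 6 of 10 without agitated antioxidant replicate 3 and 6 of 8 without agitated replicate 3 lacking antioxidants. Over all genes, calls with antioxidants in agitated culture numbered 2343, against 4167 with limma-voom and quality weights and 1436 to 2565 with 1 library left out. In static culture they numbered 48, against 28 with the replicate block, 90 with the block in static libraries only, 82 with only the groups compared, 252 with DESeq2, 707 with limma-voom and quality weights and 10 to 244 with 1 library left out. The highest of these was without agitated antioxidant replicate 3. The static-only block was chosen after seeing the data, and the cause of these shifts was not tested. The rule gave 221 genes with a difference of 1.5 and 79 with 2.5, and 103, all among the 122, with TMM-scaled CPM. Without the 2 genes of most reads, the share of gene reads was 3.31% in static cultures with antioxidants, 4.06% in static cultures without, 0.215% in agitated cultures with antioxidants (against 0.398%) and 0.277% in agitated cultures without. With library totals alone, the median static against agitated log2 fold change of all genes was 0.20 with and 0.18 without antioxidants, against -0.02 and 0.00 with TMM. Calls higher in static culture were then 71.4% and 67.7% of all calls, against 46.8% and 49.2%, and calls higher with antioxidants in agitated culture 39.2%, against 52.2%. With upper-quartile scaling, calls higher with antioxidants in static culture were 32.0%, against 20.8%, and with DESeq2 34.5%. Among the named genes' antioxidant calls, the replicate block over all 12 libraries ended those on gene196 in agitated culture (edgeR adjusted p = 0.0552) and gene2546 in static culture (0.0529), and no other. A fit of only the groups compared could not give the difference between antioxidant effects, which uses all groups. Depth limits genes near 10 reads in an agitated library.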

Other observations

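Another 23 genes met the same limits on the static minus agitated difference but had both agitated means under 1.2 on the log2(CPM + 1) scale. Their median level was 9.17 CPM in static cultures with antioxidants and 15.99 CPM without, against 0.790 CPM in agitated cultures with antioxidants and 0.534 CPM without. With antioxidants in agitated culture 1 was called higher and 0 lower by edgeR, against 11.6% and 10.6% of all genes tested, and 1 had an unadjusted p under 0.05, against 35.7%. The choice of these genes kept both agitated means low, at most 1.35 CPM with antioxidants and 1.22 CPM without. Few reads and this cap limit agitated calls, so no lack of response is read from them. In static culture 0 were called higher and 1 lower, against 0.095% and 0.361%, and 9 had an unadjusted p under 0.05, against 11.6%. One of them bears the number directly below gene11534, and its static minus agitated differences were 6.86 with antioxidants and 7.7 without. It had 231 ± 73.1 CPM in static cultures with antioxidants and 450.4 ± 268 CPM without, against 1.19 ± 0.571 CPM in agitated cultures with antioxidants and 1.09 ± 0.253 CPM without (SD, n = 3 each). Its static levels followed the replicate order of gene11534, with 163, 223 and 308 CPM with antioxidants and 189, 438 and 724 CPM without.

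The opposite pattern, a static mean lower by 2 or more on the log2(CPM + 1) scale in both antioxidant states, was met by 66 genes. Their median level was 17.6 CPM in static cultures with antioxidants and 15.46 CPM without, against 169 CPM in agitated cultures with antioxidants and 124 CPM without. With antioxidants in agitated culture edgeR called 18 of the 66 higher (27.3%) and 6 lower (9.09%), against 11.6% and 10.6% of all genes tested and 9 and 20 of the 122 static-boosted genes. The median log2 fold change was 0.33 in agitated culture and 0.27 in static culture, against -0.26 and -0.31 over the static-boosted genes. The median coefficient of variation of the 66 genes was 32.4% in agitated cultures with antioxidants and 9.65% in agitated cultures without. The difference between the sets was not tested.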
